A study of Mus musculus with 12 samples.

Results

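The genes described here are 37 interferon response genes, that is genes that type I or type II interferon induces in mouse cells. They were chosen as a list of symbols and matched to the gene symbols of the deposited table, which held 27179 gene entries for 12 heart libraries. Each of the 37 symbols matched 1 entry, and all 37 had a mean of at least 10 over the libraries, as 14038 genes did in all. By role the list held 4 transcription regulators, 6 nucleic acid sensors, 10 antiviral effectors, 2 genes of ISG15 conjugation, 6 interferon-inducible GTPases, 3 genes of antigen processing and 6 other induced genes.

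Type I interferons (alpha and beta) act through a receptor and JAK kinases on a complex that contains STAT2 and IRF9 and binds the interferon-stimulated response element (ISRE) in promoters. Interferon gamma, the type II interferon, has its own receptor and acts mainly through the gamma-activated site (GAS). The induced genes encode sensors of foreign or misplaced nucleic acid, proteins that block viral replication, immunity GTPases and the machinery that loads peptides on MHC class I, and in the heart macrophages, endothelial cells, fibroblasts and cardiomyocytes can all express them.

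RNA came from heart tissue of Balb/cByJ and Balb/cJ mice, taken 1 week after surgery, either transverse aortic constriction (TAC), a narrowing that puts a pressure load on the left ventricle, or a sham operation. There were 4 groups of 3 libraries each, with libraries 4 to 6 from TAC and 1 to 3 from sham hearts in each strain. The diet of all groups held 10 kcal% fat and began 4 days ahead of surgery. Balb/cByJ carries a deletion in Acads, a gene of short-chain fatty acid oxidation, and Balb/cJ does not. The deletion and the other differences between these substrains cannot be told apart.

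Values are the authors' read counts after division by a size factor, and they are called normalized values here. They summed to between 25161466 and 34157613 per library. Acads lay at 5613 to 6929 in Balb/cByJ and 5415 to 10928 in Balb/cJ libraries, and values summed over the gene do not tell whether the deleted stretch is lacking. Zhx2, a transcriptional repressor that differs between these substrains, was at 728 to 838 in 5 Balb/cByJ libraries and at 21 to 47 in the Balb/cJ libraries, but only at 48 in TAC Balb/cByJ 6. Dnah17, a dynein gene of cilia chosen after its values were seen, read 805 to 1019 in the same 5 libraries, 2 in TAC Balb/cByJ 6 and 1 to 11 in the Balb/cJ libraries. The library labelled TAC Balb/cByJ 6 thus goes against its strain label. Counts of members called and single calls of members in Balb/cByJ are also given without it. Exceptions are the authors' own and those of alternative processing. Several other values, such as those of some members that did not pass and of several cell marker lists, are given only with it.

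Differences are log2 differences of the group means of log2(value + 1), TAC minus sham or Balb/cByJ minus Balb/cJ, with their standard errors (SE). On this scale changes of lowly expressed genes come out too small. They come from a limma fit over all genes tested, and the threshold for passing was an adjusted p (Benjamini-Hochberg) under 0.1. Since nothing states that the libraries of a group came from separate animals, p-values measure only the spread between these libraries.

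In Balb/cByJ hearts, 3 of the 37 interferon response genes rose after TAC, namely Stat2, Ifih1 and Oasl2, and none fell. Those 3 make 8.11% of the list, while 7.81% of all genes tested were called higher and 4.76% lower, so the share was near the background. The median difference of the list was 0.44, against 0.00 for all genes tested, and 34 of the 37 differences were positive. Without the library labelled TAC Balb/cByJ 6, no member passed (3.98% of all genes higher), 5 members had an unadjusted p under 0.05 (Stat2, Ifih1, Dhx58, Ifitm3 and Ifi27l2a), the median was 0.35 and 34 differences were positive. The shifts of single members against the fit of all libraries reached their lowest at Oasl2 (0.63 without it, 1.01 with it) and Gbp7 (-0.25 without it, 0.13 with it). Members that passed in neither fit included Irf7 (0.51 without it), Irf9 (0.22), Oas1a (0.69), Ifitm3 (0.42), Tap1 (0.43), Trim30a (0.58) and Ifi27l2a (1.12, limma adjusted p = 0.162). In Balb/cJ hearts, 4 of the 37 rose after TAC, namely Zbp1, Ifit1, Iigp1 and Ifi27l2a, and none fell. That is 10.8% of the list, with 15.3% of all genes called higher and 16.2% lower. The median was 0.27, against 0.00 for all genes, and 34 differences were again positive. No member passed in both strains, and the difference between the strains' responses is tested further on.

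**Figure D1:**
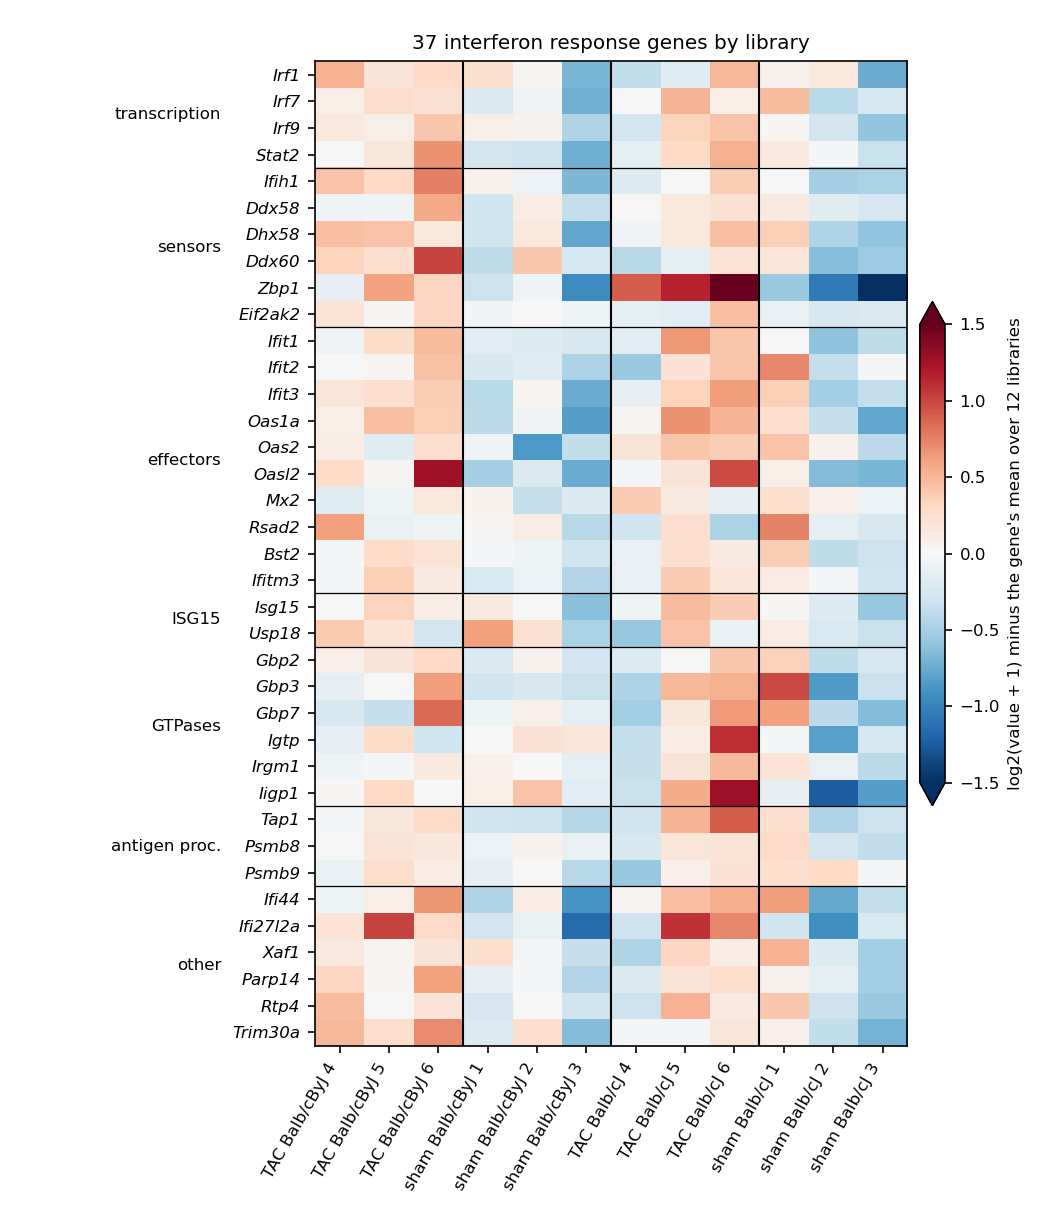
Heat map of the 37 interferon response genes (rows, grouped by role) in the 12 libraries (columns, in 4 groups of 3). Colour gives log2(value + 1) minus the mean of the gene over the 12 libraries, with values past 1.5 in either direction drawn in the end colours. Sham Balb/cByJ 3 and sham Balb/cJ 3 are blue in nearly every row, and sham Balb/cJ 1 is red in most.

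The libraries of a group differed from each other along the whole list, as the heat map shows. The mean log2(value + 1) of the 37 members was 7.80, 7.86 and 8.04 in TAC Balb/cByJ libraries 4 to 6, against 7.56, 7.66 and 7.22 in sham Balb/cByJ libraries 1 to 3. It was 7.50, 7.99 and 8.12 in TAC Balb/cJ libraries 4 to 6, against 7.91, 7.31 and 7.24 in sham Balb/cJ libraries 1 to 3. The 2 groups of Balb/cByJ did not overlap on this mean, whereas in Balb/cJ the lowest TAC library lay below the highest sham library. Sham Balb/cJ 1 was the highest library of its group for 34 of the 37 members, while it was the highest for 34.1% of all genes. TAC Balb/cJ 4 was the lowest of its group for 33 members (32.8% of all genes), and sham Balb/cByJ 3 for 33 (31.7% of all genes). TAC Balb/cByJ 6 was the highest of its group for 21 members (34.4% of all genes). Members of the list thus moved together from library to library within groups as well as between them.

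Groups that do not overlap were counted as well. All 3 TAC Balb/cByJ libraries lay above all 3 sham Balb/cByJ libraries for 16 of the 37 members (43.2%), and for 16.4% of all genes. None lay wholly below, as 18.8% of all genes did. Leaving out TAC Balb/cByJ 6 gave 17 above (22.8% of all genes) and 1 below, Gbp7 (24.5% of all genes). In Balb/cJ, Zbp1 was the only member with all TAC libraries above all sham libraries (2.70% of the list, 18.8% of all genes). Without sham Balb/cJ 1 the count was 21 (56.8% of the list, 25.9% of all genes), so it depended on that library. The count was not repeated without the other Balb/cJ libraries.

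The transcription regulators come first in the pathway. Stat2, a subunit of the complex that binds the ISRE, lies on chromosome 10 at 128270576 to 128292849 of mm10 on the plus strand, with 24 exons. Its normalized values were 309, 345 and 490 in TAC Balb/cByJ, against 253, 248 and 184 in sham Balb/cByJ. They were 279, 379 and 447 in TAC Balb/cJ, against 340, 303 and 243 in sham Balb/cJ. Every TAC Balb/cByJ library was above every sham Balb/cByJ library, with the library labelled TAC Balb/cByJ 6 the highest, and the Balb/cJ groups overlapped. Stat2 rose by 0.72 ± 0.22 in Balb/cByJ (SE, n = 3 per group, limma adjusted p = 0.0721). In Balb/cJ its difference was 0.30 ± 0.22 (limma adjusted p = 0.327). Without TAC Balb/cByJ 6 the difference in Balb/cByJ was 0.53 and did not pass (limma adjusted p = 0.19), nor did it without TAC Balb/cByJ 5 (0.78, adjusted p = 0.121), sham Balb/cByJ 1 (0.80, adjusted p = 0.171) or sham Balb/cByJ 3 (0.58, adjusted p = 0.261).

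The other regulators did not pass in either strain. Irf9, the DNA-binding subunit of that complex, was at 374, 354 and 443 in TAC Balb/cByJ, against 356, 347 and 244 in sham Balb/cByJ, and at 277, 421 and 451 in TAC Balb/cJ, against 342, 276 and 221 in sham Balb/cJ. The groups of Irf9 overlapped in both strains, and its differences were 0.32 ± 0.22 in Balb/cByJ and 0.44 ± 0.22 in Balb/cJ (limma adjusted p = 0.353 and 0.155). Irf7, which amplifies the production of type I interferon, differed by 0.53 ± 0.23 in Balb/cByJ and 0.27 ± 0.23 in Balb/cJ. Its TAC Balb/cByJ libraries (377 to 423) lay above the sham Balb/cByJ libraries (214 to 340). Irf1, a factor induced mainly by interferon gamma, differed by 0.48 ± 0.29 and 0.16 ± 0.29 in the same order of strains. All 4 regulators had a positive difference in both strains.

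Ifih1 encodes MDA5, a cytosolic sensor of long double-stranded RNA, and lies on chromosome 2 at 62595793 to 62646255 of mm10 on the minus strand. It was at 227, 206 and 285 in TAC Balb/cByJ, against 175, 158 and 105 in sham Balb/cByJ. In Balb/cJ it was at 147, 169 and 217 after TAC, against 167, 119 and 120 after sham. The Balb/cByJ groups did not overlap and the Balb/cJ groups did. Ifih1 rose by 0.73 ± 0.22 in Balb/cByJ (limma adjusted p = 0.0768), and its difference in Balb/cJ was 0.39 ± 0.22 (limma adjusted p = 0.225). The call in Balb/cByJ was lost without each of TAC Balb/cByJ 4, 5 and 6 (differences of 0.76, 0.83 and 0.60), sham Balb/cByJ 1 and 3 (0.88 and 0.51) and TAC Balb/cJ 5 (0.73), with limma adjusted p between 0.101 and 0.276.

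Zbp1, a sensor of Z-form nucleic acid that can start necroptosis, showed the largest difference of the list. It lies on chromosome 2 at 173206612 to 173218922 of mm10 on the minus strand. Its values were 46, 55 and 85 in TAC Balb/cJ, against 16, 11 and 7 in sham Balb/cJ. They were 22, 37 and 30 in TAC Balb/cByJ, against 19, 23 and 12 in sham Balb/cByJ. Every TAC Balb/cJ library was above every other library of the study, while the groups of Balb/cByJ overlapped by 1 unit. Zbp1 rose by 2.37 ± 0.37 in Balb/cJ (limma adjusted p = 0.00398), and this call was kept without each of the 12 libraries in turn (2.09 to 2.64, limma adjusted p at most 0.0192). In Balb/cByJ the difference was 0.71 ± 0.37 (limma adjusted p = 0.239). These values are low, and Zbp1 had the second lowest level per kilobase of exon among the members (14.0 normalized units per kb, against 12.7 for Ddx60 and 4300 for Ifitm3).

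No other sensor passed. Ddx58 (RIG-I, which senses short double-stranded RNA with a 5′ triphosphate), Dhx58 (LGP2, which modulates MDA5 and RIG-I) and Ddx60 differed by 0.33 ± 0.19, 0.65 ± 0.29 and 0.61 ± 0.30 in Balb/cByJ. In Balb/cJ they differed by 0.23 ± 0.19, 0.42 ± 0.29 and 0.21 ± 0.30. Eif2ak2 (PKR, the kinase that stops translation on double-stranded RNA) differed by 0.21 ± 0.15 and 0.24 ± 0.15. All 6 sensors had a positive difference in both strains, with a median of 0.63 in Balb/cByJ and 0.31 in Balb/cJ. Without TAC Balb/cByJ 6, Ddx58, Dhx58, Ddx60, Zbp1 and Eif2ak2 differed by 0.12, 0.74, 0.37, 0.68 and 0.14 in Balb/cByJ.

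Among the 10 antiviral effectors, Oasl2 passed in Balb/cByJ and Ifit1 in Balb/cJ. Oasl2, an OAS-like protein with ubiquitin-like domains, lies on chromosome 5 at 114896934 to 114912245 of mm10 on the plus strand. It was at 149, 125 and 298 in TAC Balb/cByJ, against 87, 106 and 73 in sham Balb/cByJ. In Balb/cJ it was at 122, 141 and 243 after TAC, against 131, 78 and 76 after sham. In each strain TAC library 6 stood far above the other TAC libraries, and only the Balb/cByJ groups did not overlap. Oasl2 rose by 1.01 ± 0.34 in Balb/cByJ (limma adjusted p = 0.0987), and in Balb/cJ the difference was 0.80 ± 0.34 (limma adjusted p = 0.111). Without TAC Balb/cByJ 6 the difference in Balb/cByJ was 0.63 (limma adjusted p = 0.262). The call was also lost without TAC Balb/cByJ 4 or 5 (1.13 and 1.26), sham Balb/cByJ 1 or 3 (1.00 and 0.88), sham Balb/cJ 2 or 3 (1.01 each) or TAC Balb/cJ 5 (1.01), with limma adjusted p between 0.107 and 0.293.

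Ifit1 binds viral RNA that lacks methylation of its cap, and lies on chromosome 19 at 34640889 to 34650009 of mm10 on the plus strand. It was at 80, 142 and 121 in TAC Balb/cJ, against 90, 59 and 69 in sham Balb/cJ. In Balb/cByJ it was at 87, 109 and 126 after TAC, against 80, 78 and 76 after sham. The groups overlapped in Balb/cJ, where it passed, and not in Balb/cByJ, where it did not. Ifit1 rose by 0.63 ± 0.23 in Balb/cJ (limma adjusted p = 0.0714), and in Balb/cByJ the difference was 0.44 ± 0.23 (limma adjusted p = 0.242). The call was lost without sham Balb/cJ 2 (0.49), sham Balb/cJ 3 (0.60), TAC Balb/cJ 5 (0.45) or TAC Balb/cJ 6 (0.57), with limma adjusted p between 0.162 and 0.229.

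The other effectors did not pass. In Balb/cByJ their differences ran from 0.15 ± 0.21 for Mx2 to 0.72 ± 0.29 for Oas1a, an enzyme that makes 2-5A to activate RNase L. In Balb/cJ they ran from -0.30 ± 0.30 for Rsad2 (viperin) to 0.71 ± 0.29 for Oas1a (limma adjusted p = 0.103). Ifitm3, a membrane protein that blocks viral entry, had the highest level of the list per kilobase and differed by 0.41 ± 0.15 in Balb/cByJ (limma adjusted p = 0.114) and 0.21 ± 0.15 in Balb/cJ. Ifit2, Ifit3 and Ifit1 lie near each other on chromosome 19, between 34550694 and 34650009 of mm10. Ifit3 differed by 0.65 ± 0.26 in Balb/cByJ and 0.45 ± 0.26 in Balb/cJ, while Ifit2 differed by 0.45 ± 0.28 and -0.08 ± 0.28. Oas2 (0.50 ± 0.24 and 0.29 ± 0.24) and Bst2, or tetherin (0.28 ± 0.18 and 0.20 ± 0.18), completed the group. Members of the Ifit, Oas and Gbp families have near-identical copies in the genome that can share reads, so the values of single paralogs are uncertain.

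Neither gene of ISG15 conjugation passed. Isg15, a ubiquitin-like protein attached to other proteins, was at 99, 126 and 108 in TAC Balb/cByJ, against 109, 99 and 64 in sham Balb/cByJ, and at 95, 139 and 130 in TAC Balb/cJ, against 101, 87 and 67 in sham Balb/cJ. Its groups overlapped in both strains, with differences of 0.32 ± 0.23 in Balb/cByJ and 0.51 ± 0.23 in Balb/cJ (limma adjusted p = 0.397 and 0.136). Usp18, which removes ISG15 and damps the type I receptor, differed by -0.02 ± 0.31 and 0.06 ± 0.31. Its exons overlap those of an unnamed gene on the opposite strand by 406 bases, and the strand setting of the counting is not given in the sources used here.

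The interferon-inducible GTPases, which act on the membranes of intracellular pathogens, held 1 call. Iigp1 (Irga6), on chromosome 18 at 60376029 to 60392634 of mm10, was at 351, 652 and 1074 in TAC Balb/cJ, against 405, 187 and 248 in sham Balb/cJ. In Balb/cByJ it was at 447, 542 and 443 after TAC, against 473, 593 and 394 after sham. The TAC Balb/cJ libraries spread more widely than those of any other group, and TAC and sham overlapped in both strains. Iigp1 rose by 1.23 ± 0.35 in Balb/cJ (limma adjusted p = 0.0298). In Balb/cByJ its difference was -0.01 ± 0.35 (limma adjusted p = 0.982). The call in Balb/cJ was lost without TAC Balb/cJ 6 (0.85, limma adjusted p = 0.113) and without sham Balb/cJ 2 (0.98, limma adjusted p = 0.123).

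Igtp (Irgm3), another GTPase of that family, was at 254, 353 and 708 in TAC Balb/cJ, against 320, 186 and 273 in sham Balb/cJ, and did not pass (0.65 ± 0.31, limma adjusted p = 0.148). In Balb/cByJ it differed by -0.18 ± 0.31. Gbp2, a guanylate-binding protein, was at 433, 470 and 504 in TAC Balb/cByJ, against 353, 428 and 336 in sham Balb/cByJ, and at 355, 410 and 544 in TAC Balb/cJ, against 522, 316 and 341 in sham Balb/cJ. Its Balb/cByJ groups did not overlap, yet neither difference passed (0.34 ± 0.20 and 0.16 ± 0.20, limma adjusted p = 0.284 and 0.575). Gbp3 (0.45 ± 0.40 and 0.25 ± 0.40), Gbp7 (0.13 ± 0.38 and 0.24 ± 0.38) and Irgm1 (0.05 ± 0.19 and 0.21 ± 0.19) did not pass either. The median difference of the 6 GTPases was 0.09 in Balb/cByJ, the lowest of the role groups there, and 0.25 in Balb/cJ. Without TAC Balb/cByJ 6, the differences in Balb/cByJ were 0.28 for Gbp2, 0.22 for Gbp3 and -0.25 for Gbp7. They were -0.06 for Igtp, -0.01 for Irgm1 and 0.04 for Iigp1.

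The 3 genes of antigen processing lie next to each other in the MHC region of chromosome 17. Tap1, a subunit of the peptide transporter, was at 263, 299 and 324 in TAC Balb/cByJ, against 216, 212 and 197 in sham Balb/cByJ, and at 216, 378 and 498 in TAC Balb/cJ, against 316, 193 and 212 in sham Balb/cJ. Its Balb/cByJ groups did not overlap and its Balb/cJ groups did, and neither difference passed (0.50 ± 0.26 and 0.55 ± 0.26, limma adjusted p = 0.236 and 0.144). Psmb8 and Psmb9, catalytic subunits of the immunoproteasome, differed by 0.17 ± 0.17 and 0.26 ± 0.20 in Balb/cByJ, and by 0.17 ± 0.17 and -0.27 ± 0.20 in Balb/cJ.

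Of the 6 other induced genes, Ifi27l2a passed. This gene encodes a small membrane protein, lies on chromosome 12 at 103442167 to 103443680 of mm10 on the minus strand, and had the second highest level per kilobase among the members (1780 normalized units per kb). It was at 596, 1571 and 1217 in TAC Balb/cJ, against 600, 389 and 631 in sham Balb/cJ. In Balb/cByJ it was at 853, 1493 and 905 after TAC, against 604, 691 and 331 after sham. TAC Balb/cJ 4 lay inside the sham Balb/cJ range, while the Balb/cByJ groups did not overlap. Ifi27l2a rose by 0.98 ± 0.36 in Balb/cJ (limma adjusted p = 0.0723), and in Balb/cByJ the difference was as large but did not pass (1.02 ± 0.36, limma adjusted p = 0.109). The call was lost without sham Balb/cJ 2 (0.76), sham Balb/cJ 3 (1.11), TAC Balb/cJ 5 (0.69) or TAC Balb/cJ 6 (0.87), with limma adjusted p between 0.109 and 0.24. Trim30a, a tripartite-motif protein, was at 182, 156 and 213 in TAC Balb/cByJ, against 112, 155 and 82 in sham Balb/cByJ, and at 128, 127 and 147 in TAC Balb/cJ, against 136, 100 and 79 in sham Balb/cJ. The Balb/cByJ groups were 1 unit apart, and the differences of 0.69 ± 0.24 and 0.38 ± 0.24 did not pass (limma adjusted p = 0.105 and 0.273). Ifi44 (0.64 ± 0.35 and 0.51 ± 0.35), Parp14 (0.51 ± 0.19 and 0.27 ± 0.19), Rtp4 (0.40 ± 0.26 and 0.27 ± 0.26) and Xaf1 (0.17 ± 0.26 and 0.05 ± 0.26) did not pass in either strain.

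**Figure D2:**
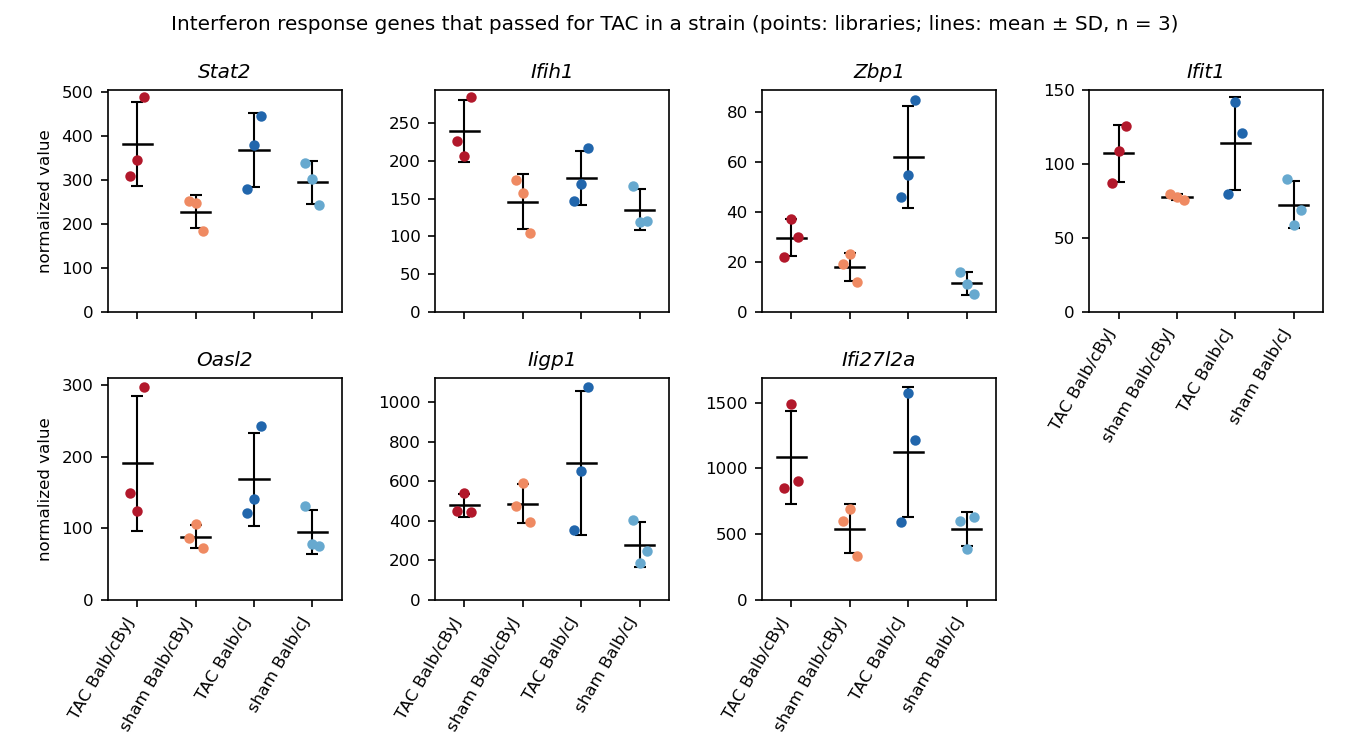
Normalized values of the 7 interferon response genes that passed for TAC in a strain, by group (points are libraries, horizontal lines with bars are the mean ± SD, n = 3). TAC Balb/cJ libraries of Zbp1 lie at 46 to 85, above every other library, while at Iigp1 and Ifi27l2a the TAC Balb/cJ libraries span 351 to 1074 and 596 to 1571.

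**Figure D3:**
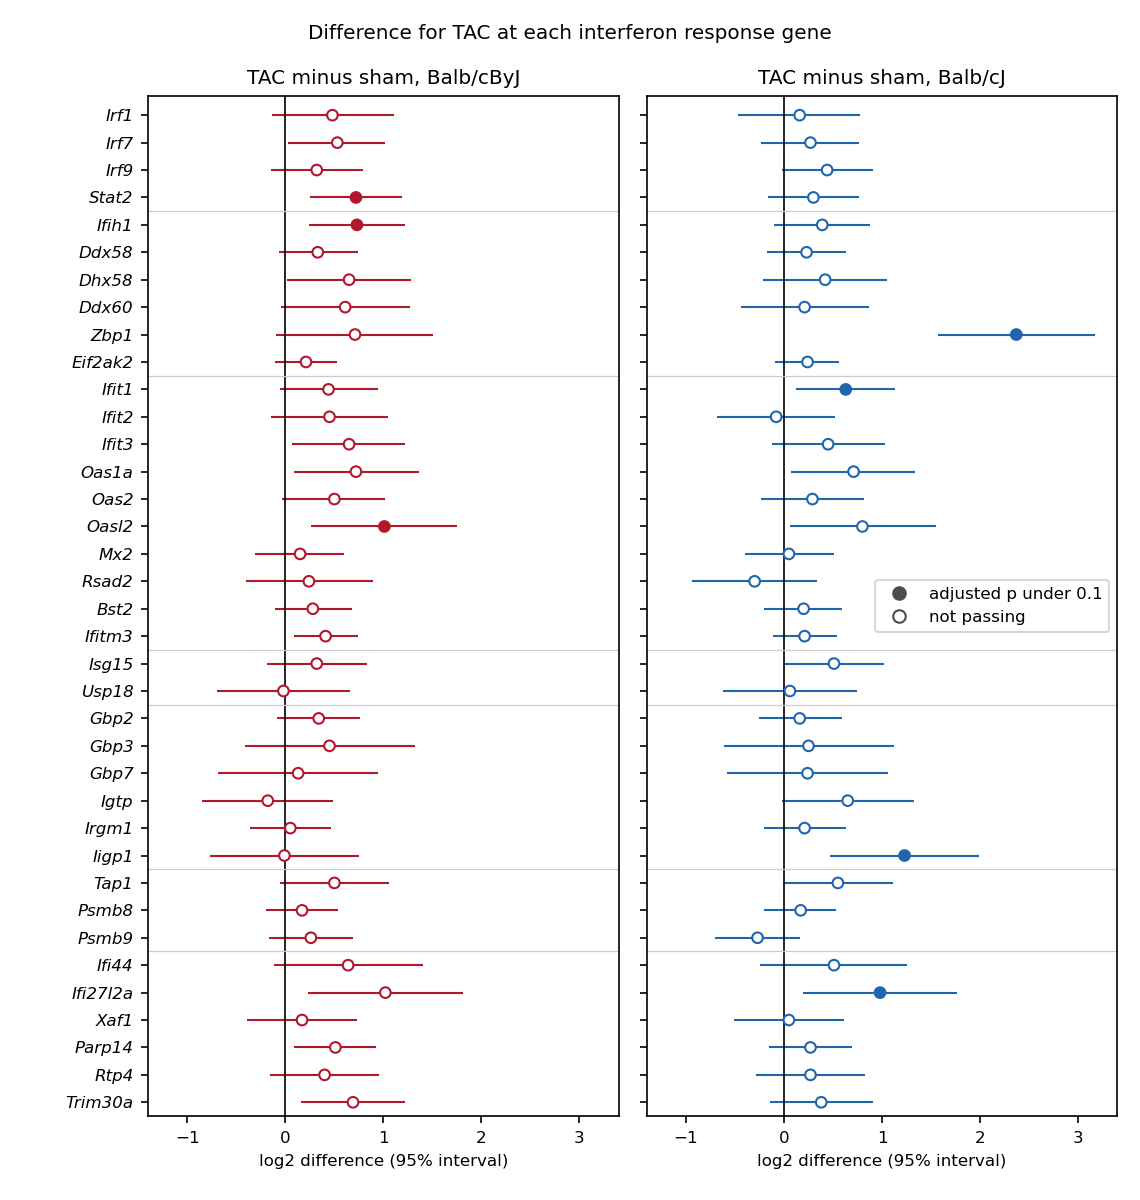
Log2 difference of TAC minus sham with its 95% interval for the 37 members, in Balb/cByJ (left) and Balb/cJ (right). Filled points passed at an adjusted p under 0.1, namely 3 in Balb/cByJ and 4 in Balb/cJ. In each strain 34 of the 37 points lie right of 0.

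Promoters of 4 members that passed are printed below, and those of Stat2, Ifih1 and Ifit1 show how the ISRE is spelled there. The windows of the mouse build GRCm38.p6 from RefSeq run from 250 bases before to 50 bases after the start, and 28 of the 37 members matched this table. Dhx58, Zbp1, Oas2, Mx2, Usp18, Iigp1, Ifi27l2a, Parp14 and Rtp4 did not. Printed 5′ to 3′ on the strand of the gene, capitals mark the ISRE core, read as GAAA and GAAA with any 2 bases between them, or its reverse complement, and all but the Ifih1 stretch end at the base before the start. The Ifih1 stretch is the last 30 bases of its window, after the start, and Oasl2 is shown as a member that passed without a match.
Stat2, chr10:128270248-128270497, plus strand: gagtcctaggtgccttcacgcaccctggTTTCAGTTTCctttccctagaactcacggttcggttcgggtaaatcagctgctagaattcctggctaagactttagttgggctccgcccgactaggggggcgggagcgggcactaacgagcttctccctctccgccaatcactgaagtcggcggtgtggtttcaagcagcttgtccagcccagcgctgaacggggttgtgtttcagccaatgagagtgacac
Ifih1, chr2:62646206-62646235, minus strand: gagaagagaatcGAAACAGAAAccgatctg
Ifit1, chr19:34640639-34640888, plus strand: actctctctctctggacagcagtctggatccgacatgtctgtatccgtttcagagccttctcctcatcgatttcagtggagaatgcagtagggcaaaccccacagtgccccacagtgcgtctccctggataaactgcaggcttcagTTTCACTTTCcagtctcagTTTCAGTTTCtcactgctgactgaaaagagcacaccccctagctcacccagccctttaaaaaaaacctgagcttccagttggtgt
Oasl2, chr5:114896684-114896933, plus strand: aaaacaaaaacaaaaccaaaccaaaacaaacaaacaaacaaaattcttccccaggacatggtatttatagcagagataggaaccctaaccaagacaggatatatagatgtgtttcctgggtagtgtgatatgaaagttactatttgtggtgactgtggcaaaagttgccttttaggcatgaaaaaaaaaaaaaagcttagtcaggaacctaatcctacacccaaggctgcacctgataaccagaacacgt

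The Stat2 window holds 1 core, 222 bases before the RefSeq start, and the deposited annotation starts Stat2 further downstream (128270576). The Ifit1 window holds 2, at 104 and 85 bases before the start. Over both strands, the ISRE core was found in the windows of 18 of the 28 matched members (64.3%), and in 3.99% of the 27025 genes of the table. The GAS, searched as TTCNNNGAA, was found in 9 of the 28 (32.1%), and in 9.55% of all genes. Irf1, Ifit2 and Psmb8 held the GAS without the ISRE core, and Irf7, Irf9, Oasl2, Tap1, Psmb9, Ifi44 and Xaf1 held neither. The letters of the 2 motifs overlapped in Bst2 and Ifitm3, and the windows of Tap1 and Psmb9, which face away from each other, share 275 bases. A match is a description of these windows and not a bound site.

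Whether the response to TAC differed between the strains was tested as the difference in Balb/cByJ minus the difference in Balb/cJ. No member passed in limma or in voom, and 2 had an unadjusted limma p under 0.05. Over all genes, 0% passed as higher and 0.00712% as lower. At Zbp1 the difference between the strains was -1.67 ± 0.52 (95% interval -2.80 to -0.53, unadjusted p = 0.00748, limma adjusted p = 0.669). At Iigp1 it was -1.25 ± 0.50 (95% interval -2.32 to -0.17, unadjusted p = 0.0264, limma adjusted p = 0.723). At Igtp it was -0.83 ± 0.44 and at Psmb9 0.53 ± 0.28. At Stat2, Ifih1 and Oasl2, which passed in Balb/cByJ, it was 0.42 ± 0.31, 0.34 ± 0.32 and 0.20 ± 0.49, with 95% intervals of -0.25 to 1.08, -0.35 to 1.03 and -0.85 to 1.26. Over the list the median was 0.13 and 26 of the 37 values were positive, and the median turned to -0.06 with 12 positive without sham Balb/cJ 1 and to -0.01 with 17 positive without TAC Balb/cJ 4. Without TAC Balb/cByJ 6 the median was 0.09 with 20 positive, Zbp1 was at -1.69 ± 0.58 and Iigp1 at -1.20 ± 0.54 (unadjusted p = 0.0131 and 0.0493, limma adjusted p = 0.831 and 0.862), and Oasl2 turned to -0.17 ± 0.42. Without that library Stat2, Ifih1, Igtp and Psmb9 were at 0.22, 0.21, -0.71 and 0.52. The 7 calls were thus made in single strains, and a difference between the strains was not shown for any of them.

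Between the strains after the same surgery, no member passed either. After sham, Balb/cByJ minus Balb/cJ had a median of -0.03 over the list, with 16 positive values, while 4.27% of all genes were higher and 4.10% lower in Balb/cByJ. Iigp1 had the smallest p, with 0.85 ± 0.35 (unadjusted p = 0.0314, limma adjusted p = 0.183), and it was the only member with an unadjusted p under 0.05. Eif2ak2 and Igtp had all sham Balb/cByJ libraries above all sham Balb/cJ libraries (13.4% of all genes), and no member had them all below (13.8% of all genes). Without sham Balb/cJ 1, 10 members had them all above (20.3% of all genes) and none all below (24.5% of all genes). Iigp1 then passed (5.07% of all genes called higher). After TAC, the median was 0.05 and 22 values were positive, and 0.00712% of all genes were higher and 0% lower. Zbp1 was lower in TAC Balb/cByJ by values that did not overlap (22 to 37, against 46 to 85 in TAC Balb/cJ), with a difference of -1.02 ± 0.37 that did not pass (unadjusted p = 0.0167, limma adjusted p = 0.388). It was the only member with all TAC Balb/cByJ libraries below (7.54% of all genes), and Ddx60 and Trim30a were the members with all of them above (6.91% of all genes). Without TAC Balb/cByJ 6, Ddx60 and Trim30a were above and Ddx58, Zbp1 and Oas2 below (12.9% and 12.8% of all genes). The sign of both medians changed with single libraries, with a median of 0.20 after sham without sham Balb/cJ 1 and, after TAC, of -0.12 with 8 positive without TAC Balb/cJ 4 and -0.03 with 17 positive without TAC Balb/cByJ 6. Zbp1 after TAC was at -1.04 ± 0.43 without TAC Balb/cByJ 6 (unadjusted p = 0.0324, limma adjusted p = 0.501). Voom likewise called no member in either strain comparison, with 0 members at an unadjusted p under 0.05 after sham and 1 after TAC.

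How many members passed depended on single libraries. Without sham Balb/cJ 1, 16 members passed as higher in Balb/cJ, with 17.0% of all genes called higher. They were Irf7, Irf9, Dhx58, Zbp1, Ifit1, Ifit3, Oas1a, Oasl2, Bst2, Isg15, Gbp3, Iigp1, Tap1, Psmb8, Ifi44 and Ifi27l2a. Without TAC Balb/cJ 4 the number was 11 (15.3% of all genes). It was 2 without TAC Balb/cJ 5 (12.4%) or sham Balb/cJ 3 (9.86%), and 1, Zbp1, without TAC Balb/cJ 6 (8.54%) or sham Balb/cJ 2 (9.42%). In Balb/cByJ, 9 members passed without sham Balb/cByJ 2 (10.3% of all genes) and 1, Stat2, without TAC Balb/cByJ 4 (2.94%). None passed without TAC Balb/cByJ 5 (2.63%), sham Balb/cByJ 1 (0.0427%) or sham Balb/cByJ 3 (0.526%). The unadjusted p was then under 0.05 for 7, 8 and 3 members. Libraries of the other strain moved the count in Balb/cByJ too, since all groups share 1 estimate of the spread. Without sham Balb/cJ 1, 2 and 3 it was 5, 2 and 3 (8.68%, 7.46% and 7.76% of all genes), and without TAC Balb/cJ 4, 5 and 6 it was 5, 1 and 6 (8.29%, 6.01% and 10.8%). In Balb/cJ the count without a Balb/cByJ library was 4 to 6 (14.1%, 14.8% and 14.7% of all genes without sham Balb/cByJ 1, 2 and 3, and 14.4%, 14.6% and 15.4% without TAC Balb/cByJ 4, 5 and 6). Under each of these fits 29 to 36 of the 37 differences were positive in both strains.

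**Figure D4:**
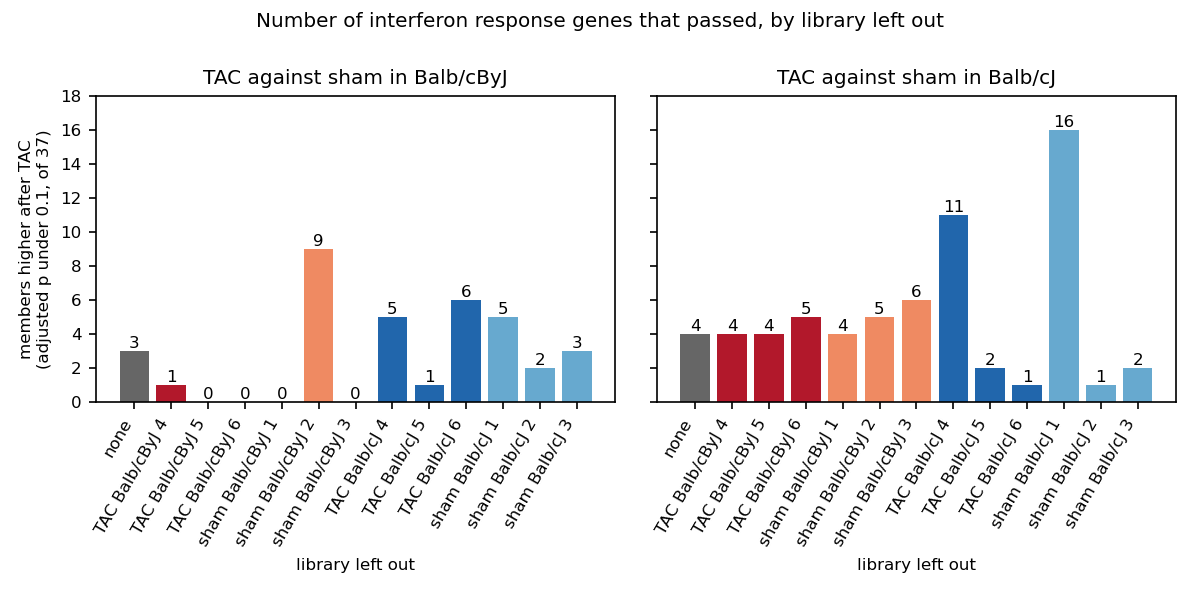
Number of the 37 interferon response genes that passed as higher after TAC in Balb/cByJ (left) and Balb/cJ (right), for the fit of all libraries (none) and for fits that leave out 1 library each. In Balb/cJ the bars run from 1 to 16 and in Balb/cByJ from 0 to 9.

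Further genes of the pathway, from lists made for this report, were read beside the members. Of 21 interferon genes, 20 were at 0 in every library, and Ifng had a value of 1 in TAC Balb/cByJ 4 and in TAC Balb/cJ 6 and 0 elsewhere, so no interferon gene reached the tested level. Of 10 genes of the receptors and of JAK-STAT signalling, 2 rose and 2 fell in Balb/cByJ (7.81% and 4.76% of all genes). Ifnar2 and Ifngr1, receptor chains for type I interferon and interferon gamma, rose by 0.26 ± 0.08 and 0.29 ± 0.09, while Ifngr2 and Il10rb fell by 0.49 and 0.40 (SE of 0.11 each, limma adjusted p between 0.0391 and 0.0875 for the 4). When any single Balb/cByJ library was left out, none of the 10 rose in Balb/cByJ (0.0427% to 10.3% of all genes). The falls of Ifngr2 and Il10rb were kept without TAC Balb/cByJ 6 (0.927% of all genes lower). Both falls were lost without TAC Balb/cByJ 4 or 5 or sham Balb/cByJ 1 or 3 (limma adjusted p between 0.101 and 0.229). In Balb/cJ, Ifnar1 rose by 0.42 ± 0.12 and Il10rb fell by 0.48 (SE of 0.11), with 15.3% of all genes called higher and 16.2% lower.

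Of 15 sensors, adaptors and inducing factors outside the list, 4 rose and 1 fell in Balb/cByJ (7.81% and 4.76% of all genes). In Balb/cJ 7 rose (15.3% of all genes). Tlr7, the endosomal receptor for single-stranded RNA, rose by 1.30 ± 0.32 in both strains (limma adjusted p = 0.0476 in Balb/cByJ and 0.0186 in Balb/cJ). The Tlr7 call in Balb/cByJ was lost without TAC Balb/cByJ 6 (1.16, limma adjusted p = 0.116), TAC Balb/cByJ 4 (1.32, adjusted p = 0.105), sham Balb/cByJ 1 (1.25, adjusted p = 0.162) or sham Balb/cByJ 3 (1.06, adjusted p = 0.2), and the call in Balb/cJ was kept without each library in turn. Its values were 180, 160 and 226 in TAC Balb/cByJ, against 71, 112 and 54 in sham Balb/cByJ, and 161, 137 and 124 in TAC Balb/cJ, against 72, 75 and 33 in sham Balb/cJ. Irf5, a factor that acts downstream of such receptors, rose by 0.95 ± 0.19 and 1.02 ± 0.19 (limma adjusted p = 0.0304 and 0.00717), and in Balb/cByJ it did not pass without sham Balb/cByJ 1 or 3 (limma adjusted p = 0.133 each). Neither gene's groups overlapped in either strain. In Balb/cByJ 1 of the 15 rose and 1 fell without TAC Balb/cByJ 6 (3.98% of all genes higher, 0.927% lower) or 4 (2.94% and 0.741%). None did without sham Balb/cByJ 1 or 3 (0.0427% and 0.526% higher), while in Balb/cJ 3 rose without TAC Balb/cJ 6 (8.54%). Mavs, the adaptor that MDA5 and RIG-I share, fell by 0.46 in Balb/cByJ (SE of 0.09, limma adjusted p = 0.0327). Of 10 negative regulators, none passed in Balb/cByJ and 2 rose in Balb/cJ (20% of the list, 15.3% of all genes). These were Socs3, an inhibitor of JAK kinases, and Ptpn6, a phosphatase, with 1.18 ± 0.33 and 1.07 ± 0.26. In Balb/cByJ 1 negative regulator rose without TAC Balb/cByJ 6 (3.98% of all genes).

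Of 43 other type I interferon-induced genes tested, 4 rose in Balb/cByJ (9.3%, against 7.81% of all genes) with a median of 0.27. In Balb/cJ 7 rose (16.3%, against 15.3% of all genes) and 2 fell, with a median of 0.13, so both shares were near the background. Tor3a, a torsin family ATPase, rose in both strains (0.46 ± 0.13 and 0.40 ± 0.13, limma adjusted p = 0.0649 and 0.049), but in Balb/cByJ it did not pass without TAC Balb/cByJ 6 (0.44, limma adjusted p = 0.142), and in Balb/cJ it was lost without TAC Balb/cJ 5 or 6 or sham Balb/cJ 2 or 3. Mx1, a gene of the Mx GTPase family, rose by 1.85 ± 0.39 in Balb/cJ (24, 42 and 20 in TAC Balb/cJ, against 8, 8 and 5 in sham Balb/cJ, limma adjusted p = 0.0112). In the same strain Helz2 and Trim25, the ubiquitin ligase that activates RIG-I, fell by 0.34 and 0.39 (SE of 0.11 and 0.15). The Helz2 call was lost without sham Balb/cJ 2 or TAC Balb/cJ 6 (limma adjusted p up to 0.167). That of Trim25 was lost without sham Balb/cJ 1 or 2 or TAC Balb/cJ 4 or 6 (limma adjusted p up to 0.211). None of the 43 passed in Balb/cByJ without TAC Balb/cByJ 6, 4 or 5 (3.98%, 2.94% and 2.63% of all genes higher). Nor did any pass without sham Balb/cByJ 1 or 3 (0.0427% and 0.526% higher). In Balb/cJ 1 rose without sham Balb/cJ 2 or 3 or TAC Balb/cJ 5 (9.42%, 9.86% and 12.4% of all genes). The number was 2 without TAC Balb/cJ 6 (8.54%) and 3 without sham Balb/cByJ 1 (14.1%).

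Of 28 other interferon gamma-induced genes tested, 5 rose in Balb/cByJ (17.9%, against 7.81% of all genes), with a median of 0.38. In Balb/cJ 7 rose (25%, against 15.3% of all genes) and 3 fell (16.2% of all genes), with a median of 0.30. Those that rose in both strains included genes of MHC class II, which present peptides to CD4 T cells. H2-Ab1 was at 1495, 1638 and 1372 in TAC Balb/cByJ, against 996, 979 and 860 in sham Balb/cByJ, and at 1226, 1238 and 1469 in TAC Balb/cJ, against 1071, 706 and 573 in sham Balb/cJ. Its groups did not overlap in either strain, and it rose by 0.67 ± 0.18 and 0.79 ± 0.18 (limma adjusted p = 0.0593 and 0.0146). The H2-Ab1 call in Balb/cByJ was kept without TAC Balb/cByJ 6 and lost without TAC Balb/cByJ 4 or 5 or sham Balb/cByJ 1 or 3. H2-Eb1 rose by 0.64 ± 0.19 and 0.68 ± 0.19, but in Balb/cByJ it did not pass without TAC Balb/cByJ 6 (0.63, limma adjusted p = 0.139), TAC Balb/cByJ 4 or 5 or sham Balb/cByJ 1 or 3. Ciita, the master regulator of these genes, rose by 1.93 ± 0.47 in Balb/cJ (limma adjusted p = 0.0187). Psmb10, the third catalytic subunit of the immunoproteasome, fell by 0.49 in Balb/cJ (SE of 0.12, limma adjusted p = 0.0185). Serping1 passed as higher after TAC in both strains. In Balb/cByJ it rose by 0.84 (limma adjusted p = 0.0151), and this call was lost only without sham Balb/cByJ 1 (0.76, limma adjusted p = 0.101). After sham, Psmb10, Tap2, Gbp10 and Serping1 were lower in Balb/cByJ than in Balb/cJ (-0.44, -0.34, -0.90 and -0.39, limma adjusted p between 0.0529 and 0.0772). Each of these 4 calls was lost when 1 of 4 or 5 single libraries was left out, among them sham Balb/cJ 2 and sham Balb/cByJ 3 for all 4 (without sham Balb/cJ 2, limma adjusted p = 0.217 for Psmb10, 0.203 for Tap2, 0.151 for Gbp10 and 0.258 for Serping1). In Balb/cByJ 2 of the 28 rose without TAC Balb/cByJ 6 (3.98% of all genes) and none without sham Balb/cByJ 1 (0.0427%). Only 1 rose without sham Balb/cByJ 3 or TAC Balb/cByJ 4 or 5 (0.526%, 2.94% and 2.63% of all genes). In Balb/cJ the number that rose was 3 without sham Balb/cJ 3 (9.86% of all genes) and 4 without TAC Balb/cJ 6 (8.54%). It ran up to 12 without sham Balb/cJ 1 (17.0% of all genes) or TAC Balb/cJ 4 (15.3%).

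In heart tissue, more cells that express a gene and more RNA of it per cell cannot be told apart, so markers of cell types were read beside the members. Of 20 macrophage and monocyte markers, 12 rose in Balb/cByJ (60%, against 7.81% of all genes, median 0.92). In Balb/cJ 16 rose (80%, against 15.3% of all genes, median 1.10), and none fell in either strain. Their summed values were 22094 to 29519 in TAC Balb/cByJ, against 10287 to 18032 in sham Balb/cByJ. In Balb/cJ they were 21850 to 24813 after TAC, against 9595 to 13662 after sham. These sums did not overlap between TAC and sham in either strain. In Balb/cByJ 9 of these markers rose without TAC Balb/cByJ 6 (3.98% of all genes) and 6 without TAC Balb/cByJ 4 (2.94%). The number was 2 without sham Balb/cByJ 3 (0.526% of all genes) and 0 without sham Balb/cByJ 1 (0.0427%). Within the sham Balb/cJ group, library 1 had both the highest macrophage sum (13662) and the highest member sum (13668, against 9850 and 9269 in libraries 2 and 3). Within the sham Balb/cByJ group, library 2 was highest (18032 and 11685) and library 3 lowest (10287 and 8923) on both sums. Within the TAC Balb/cByJ group the order was the other way, with the highest macrophage sum (29519) and the lowest member sum (12586) in library 4. In the TAC Balb/cJ group, library 6 had the lowest macrophage sum (21850) and the highest member sum (16036).

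Of 16 T and NK cell markers, 6 were tested and none passed, and their summed values were 143 to 230 in TAC Balb/cByJ, against 105 to 147 in sham Balb/cByJ. In Balb/cJ they were 96 to 174 after TAC, against 78 to 105 after sham. Endothelial markers, 12 in all, had no call in Balb/cByJ. In Balb/cJ 7 fell and 1 rose (16.2% and 15.3% of all genes, median -0.53). Their sum in sham Balb/cJ 1 was 67013, against 54795 and 46613 in libraries 2 and 3 of that group, so the library with high members was also high in endothelial markers. Of 10 fibroblast markers 9 rose in each strain (7.81% of all genes in Balb/cByJ and 15.3% in Balb/cJ). But in Balb/cByJ 1 fibroblast marker rose without sham Balb/cByJ 3 (0.526% of all genes) and none without sham Balb/cByJ 1 (0.0427%). In Balb/cJ 6 rose in the lowest case when single libraries were left out (8.54% to 17.0% of all genes over those fits). Of 10 atrial markers none passed in Balb/cByJ (median 1.04), and 7 rose in Balb/cJ (median 5.03, 15.3% of all genes). Their sums were 25180 to 239594 in TAC Balb/cByJ, against 6808 to 116821 in sham Balb/cByJ. In Balb/cJ the atrial sums were 43406 to 156541 after TAC, against 9989 to 20272 after sham. No marker of these 5 lists was at 0 in a whole group. The part of any of these cell types in the members' values was not tested.

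The authors' deposited table gave more calls for the list in Balb/cByJ. At an adjusted p under 0.1, the authors' deposited table listed 11 members as higher in Balb/cByJ, where 10.5% of its genes with an adjusted p were higher. These were Irf7, Stat2, Ifih1, Ifit2, Ifit3, Oasl2, Ifitm3, Tap1, Ifi27l2a, Parp14 and Trim30a. The authors' Balb/cByJ calls could not be given without TAC Balb/cByJ 6, which goes against its strain label. In limma no member passed in Balb/cByJ without that library (3.98% of all genes higher). In Balb/cJ the authors' deposited table listed 4, Zbp1, Oasl2, Iigp1 and Ifi27l2a, with 11.7% of its genes higher. In each strain 3 of these also passed in limma, and the authors' deposited table listed none of the 37 as lower in either strain. For Zbp1 in Balb/cJ the shrunken log2 fold change of the authors' deposited table was 1.65, with an adjusted p of 5.72e-06.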

How the data were processed

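Hearts were read as 12 libraries in 4 groups of 3. Per the labels, total RNA was made into stranded mRNA libraries. Per the submitters' processing notes the reads went through STAR, Subread featureCounts and DESeq2 on mm10, whose versions, annotation release and strand setting the sources used here do not state. Gene values were deposited as scores, read counts scaled by the authors with library size factors and then rounded, which is read from gaps between the values, so a count model did not apply and depth in reads is not exact. The authors' log2 fold changes were shrunken, per the file headers, and their adjusted p-values were deposited beside them. Deposited gene lengths, another unit (exon bases, per the file headers), gave the levels per kilobase.

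Sham columns carry the numbers of the titles, whereas TAC columns are numbered 4 to 6 and were assigned by strain and surgery only. Of 20278 genes with any value above 0, the 14038 with a mean of at least 10 were fitted as log2(value + 1), where 1 is the pseudocount, in R 4.3.3 by limma 3.58.1 (eBayes with trend, 1 mean per group, 12 libraries, 8 residual degrees of freedom). A total of 847 entries had no symbol. The fit was tested on simulated data. Plots and motif searches used Python 3.11.15, numpy 2.4.6, pandas 2.3.3 and matplotlib 3.10.9.

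The members and lists were chosen with earlier results of these data known. The rule for named genes gave values in all libraries to each member that passed and to the member with the smallest p of each role group in each strain. From each pathway list it took up to 4 genes per comparison in order of p. Other genes were chosen after their values were seen. Alternatives were no filter, pseudocounts of 0.5 and 5, rescaling to equal totals or upper quartiles, voom, an adjusted p of 0.05, a fit of fewer groups, leaving out each library and, between the sham groups, a replicate block. Count models were planned only for raw counts and were not run. Lists of B cell, dendritic cell, cardiomyocyte and adipocyte markers were also read. Of these lists 4, 6, 10 and 8 genes were tested. In Balb/cByJ 3, 1, 0 and 4 rose (7.81% of all genes). In Balb/cJ 1, 2, 0 and 6 rose (15.3% of all genes), and 3 cardiomyocyte markers were lower (16.2% of all genes).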

Additional observations from a re-analysis of the deposited data

How the results depend on the processing

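With 3 libraries per group, the number of members called moved with single libraries and with the scaling, while most differences stayed positive. Rescaling to equal totals moved the median of all genes by 0.21 in Balb/cJ and 0.16 in Balb/cByJ, where the list medians became 0.48 and 0.60. It called 28.1% of all genes higher and 6.34% lower in Balb/cJ, and 11.7% and 1.63% in Balb/cByJ. Members called higher in Balb/cJ numbered 10 with equal totals, 9 with voom (27.6% of all genes higher), 2 at an adjusted p of 0.05 (10.4%) and 1 to 16 when a library was left out, against 4 in the fit reported. In Balb/cByJ they numbered 6 with equal totals, 5 with voom (12.2% of all genes), 0 at an adjusted p of 0.05 (2.65%), 10 in a fit of only the groups compared (10.3%) and 0 to 9 when a library was left out, against 3. For the strains after sham, where none passed, 1 member (Iigp1) was higher in a fit of only the sham groups (4.86% of all genes) and 0 to 1 when a library was left out. The cause of these shifts was not tested.

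The sham groups share replicate numbers. Libraries with the same number correlated at r = -0.21, -0.0653 and 0.174 in their deviations from the group means. Those with different numbers correlated at -0.19 to 0.249. With 3 libraries per group these values cannot tell whether the numbers mark a shared batch. With the replicate block 1 member was higher in Balb/cByJ (4.13% of all genes). No paired analysis was possible for the TAC groups because their columns carry no title number, and the interaction could not be fitted with only the groups compared.

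Of the single members named, Gbp2 in Balb/cJ reached -0.01 without TAC Balb/cJ 6 and ran up to 0.39 when other libraries were left out. Iigp1 in Balb/cByJ turned to 0.15 with equal totals and with voom, and ran from -0.16 to 0.14 when single libraries were left out. The interaction of Oasl2 turned to -0.05 without sham Balb/cJ 1 and ran from -0.17 (without TAC Balb/cByJ 6) to 0.50. That of Ifi27l2a turned to -0.02 with equal totals, -0.01 with voom and ran from -0.37 to 0.33 when single libraries were left out. None of these values had passed. Other values of the members named kept their direction, 30 of them passing where the reported value did not and 38 the reverse. All values of the pathway genes named kept their direction, and 156 of 743 no longer passed.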

Other observations

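Other genes, chosen after their values were seen, stood out in 1 library. Cxcl9, a chemokine that interferon gamma induces and that attracts T cells, was at 8, 25 and 138 in TAC Balb/cJ, against 27, 6 and 13 in sham Balb/cJ, and at 31, 31 and 22 in TAC Balb/cByJ, against 29, 33 and 27 in sham Balb/cByJ. Cxcl10, a chemokine for the same receptor, was at 8, 8 and 43 in TAC Balb/cJ, against 6, 1 and 2 in sham Balb/cJ, and was under the level tested. TAC Balb/cJ 6, where both were highest, was also the highest library of its group for 24 of the 37 members (39.0% of all genes), among them Iigp1 (1074) and Igtp (708). Cxcl9 did not pass in either strain (limma differences of -0.09 ± 0.77 in Balb/cByJ and 1.19 ± 0.77 in Balb/cJ, and 0.07 ± 0.89 in Balb/cByJ without TAC Balb/cByJ 6).

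Ccr2, a receptor of recruited monocytes on the macrophage list, was at 141, 72 and 125 in TAC Balb/cByJ, against 28, 43 and 20 in sham Balb/cByJ, and at 90, 69 and 230 in TAC Balb/cJ, against 9, 6 and 5 in sham Balb/cJ. It rose by 1.87 ± 0.44 in Balb/cByJ and 3.92 ± 0.44 in Balb/cJ (limma adjusted p = 0.0435 and 0.00123), and after sham the difference of Balb/cByJ minus Balb/cJ was 2.00 ± 0.44 (limma adjusted p = 0.0289). The difference between the strains' responses was -2.06 ± 0.62 and did not pass (limma adjusted p = 0.652). Without TAC Balb/cByJ 6, which goes against its strain label, Ccr2 in Balb/cByJ was at 1.77 ± 0.51 and did not pass (limma adjusted p = 0.101), and the difference between the responses was -2.16 ± 0.68 (limma adjusted p = 0.8).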
